A study of Mus musculus with 12 samples.

Results

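The 10 genes described here are macrophage markers and the complement C1q genes, namely Csf1r, Cx3cr1, Adgre1, Mrc1, Cd163, C1qa, C1qb, C1qc, Lyz2 and Cd68. They were found by symbol in the deposited table of normalised counts, where they are 10 of 47730 features, and all 10 passed the filter on low values in each comparison below. The libraries came from whole skeletal muscle (gastrocnemius with plantaris) and whole testis of freely fed male mice of 5 to 6 months on the C57BL/6J background. The genotypes were wild type (Bckdk+/+) and homozygous mutant (BckdkM/M, titled KO). The kinase made by Bckdk restrains the breakdown of branched-chain amino acids, and no other allele or treatment is named in the labels. There were 12 libraries in 4 groups of 3 from 7 animals, 5 of which gave both tissues. Letters stand for the animals. Wild-type libraries came from A, B, C in each tissue, mutant muscle libraries from D, F, G, and testis libraries labelled mutant from D, E, F, and values are listed in that order. RNA was polyA-selected and came from whole tissue, so fewer cells of a type and less RNA per cell cannot be told apart.

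Macrophages are phagocytes that live in nearly all tissues. They survive through the CSF1 receptor (Csf1r), and they engulf dead cells and debris, present antigen and release signals that bear on repair. In resting muscle they lie in the connective tissue around the fibres, and in testis they lie between the tubules beside the testosterone-producing Leydig cells and on the tubule wall. Tissue macrophages are also a main source of C1q, the protein that starts the classical complement pathway. It is built from the A, B and C chains encoded by C1qa, C1qb and C1qc, and it binds antibody complexes, dying cells and microbes.

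The 3 C1q genes lie side by side on the minus strand at chr4:136880129-136898803 (GRCm38), a span of 18675 bp in which GENCODE release M21 places no other gene. C1qb and C1qc are 3616 bp apart, and C1qc and C1qa are 2851 bp apart. RefSeq promoters (GRCm38.p6) were matched for 7 of the 10 genes, all but Csf1r, Adgre1 and C1qa. The 250 bases before the start are printed for both matched C1q genes, whose tissue differences were alike in direction, and for 2 scavenger receptor genes, Cd163 and Mrc1, whose tissue patterns differed from each other. Capitals mark GAGGAA on either strand (TTCCTC on the other), the core of sites bound by PU.1, a transcription factor of myeloid cells encoded by Spi1.
C1qb: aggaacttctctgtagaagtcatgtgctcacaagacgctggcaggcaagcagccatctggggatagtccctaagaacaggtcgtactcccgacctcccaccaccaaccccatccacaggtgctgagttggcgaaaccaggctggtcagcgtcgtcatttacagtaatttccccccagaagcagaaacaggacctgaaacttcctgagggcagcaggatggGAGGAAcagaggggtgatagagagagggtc
C1qc: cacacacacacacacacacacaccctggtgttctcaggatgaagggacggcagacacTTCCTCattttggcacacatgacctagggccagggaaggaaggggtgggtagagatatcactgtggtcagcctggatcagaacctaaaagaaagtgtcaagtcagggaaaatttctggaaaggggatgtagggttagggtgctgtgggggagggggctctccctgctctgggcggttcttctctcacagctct
Cd163: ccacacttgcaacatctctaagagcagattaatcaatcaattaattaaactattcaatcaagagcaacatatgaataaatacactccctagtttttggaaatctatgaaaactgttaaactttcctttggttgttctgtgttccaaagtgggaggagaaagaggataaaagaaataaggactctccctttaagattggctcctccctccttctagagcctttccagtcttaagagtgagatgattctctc
Mrc1: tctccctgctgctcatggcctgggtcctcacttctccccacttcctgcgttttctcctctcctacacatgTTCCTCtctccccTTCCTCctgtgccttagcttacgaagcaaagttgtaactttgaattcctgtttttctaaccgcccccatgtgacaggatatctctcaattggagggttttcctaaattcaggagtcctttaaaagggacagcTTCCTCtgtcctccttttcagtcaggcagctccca
The windows are chr4:136886201-136886450 for C1qb, chr4:136892915-136893164 for C1qc, chr6:124304401-124304650 for Cd163 and chr2:14229164-14229413 for Mrc1, the C1q windows on the minus strand and the others on the plus strand. C1qb held the motif once, 30 bases before the start, and C1qc once, 193 bases before it. Mrc1 held it at 180, 167 and 35 bases before the start, and Cd68 once, at 225 bases, while Cd163, Cx3cr1 and Lyz2 held none. It thus occurred in 4 of the 7 matched windows, against 23.25% of all 32851 RefSeq promoter windows of this length. The matches are a description of these letters and not of bound sites.

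Depth was 12852427 to 15795722 counted reads per library, and the members took 10 reads or fewer only for Cx3cr1 in wild-type muscle and mutant muscle D. Values below are normalised counts (reads divided by a size factor per library), with group values as mean ± SD over n = 3 libraries, and log2 changes come from limma with p-values adjusted by the Benjamini-Hochberg method over all genes tested. Muscle Bckdk read 2214, 2421, 2627 (wild type) and 14.8, 14.3, 12.4 (mutant). Testis Bckdk read 68.0, 73.3, 71.0 (wild type) and 138, 119, 114 (labelled mutant), the reverse of what a loss of Bckdk transcript would give. The neomycin resistance transcript NeoR, a feature of the deposited table, ran with the labels in both tissues. It read 2.28, 3.25, 3.85 (wild type) and 251, 208, 266 (mutant) in muscle, and 1.76, 2.50, 3.34 (wild type) and 13.1, 19.9, 18.6 (labelled mutant) in testis. Testis directions are given by label. Libraries also held transcripts of markers of other tissues, whose source was not tested. The sum of 6 islet cell markers was 29333 in F and 27671 in G among the muscle libraries, where the remaining 4 had 12235 to 14276. Among testis libraries it was 17248 in A and 17001 in B, where the remaining 4 had 9374 to 12128. Muscle library G had 11.5% mitochondrial reads, against 7.65% to 8.21% in the remaining muscle libraries, and its adipocyte markers summed to 78662 against 7761 to 32472.

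In wild-type mice, 8 of the 10 genes were lower in testis than in muscle and Cx3cr1 was higher, while Mrc1 did not pass the test. This stands against 37.3% of 19994 genes called lower in testis, 50.6% called higher and 87.9% called in either direction. Cd163 was 13.3-fold lower, Lyz2 9.29-fold, and C1qa and C1qc 6.73-fold and 6.70-fold. C1qb (4.02-fold), Cd68 (3.18-fold), Csf1r (2.72-fold) and Adgre1 (2.38-fold) were lower by less. In the groups labelled mutant the same 8 genes were called lower, against 36.3% of 20021 genes called lower and 85.9% called in either direction, and 0 were called higher, against 49.7% of all genes. All testis libraries lay below all muscle libraries for 8 genes in wild type, against 38.1% of all genes, and for 9 in the mutant groups, against 37.2%. The median log2 difference over the 10 genes was -1.81 in wild type and -1.84 in the mutant groups, against 0.48 over all genes tested in each. That last median depends on the scaling and was 0.28 with TMM in wild type and 0.31 in the mutant groups. It also depends on the filter and the libraries, and in wild type it was 0.19 with a mean of at least 50. Without wild-type muscle A it was 0.65 and without wild-type testis A -0.18, with medians over the 10 genes of -1.83 and -1.80. The call of each of these 8 genes as lower held under every alternative in which it was tested, in both genotypes.

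**Figure D1:**
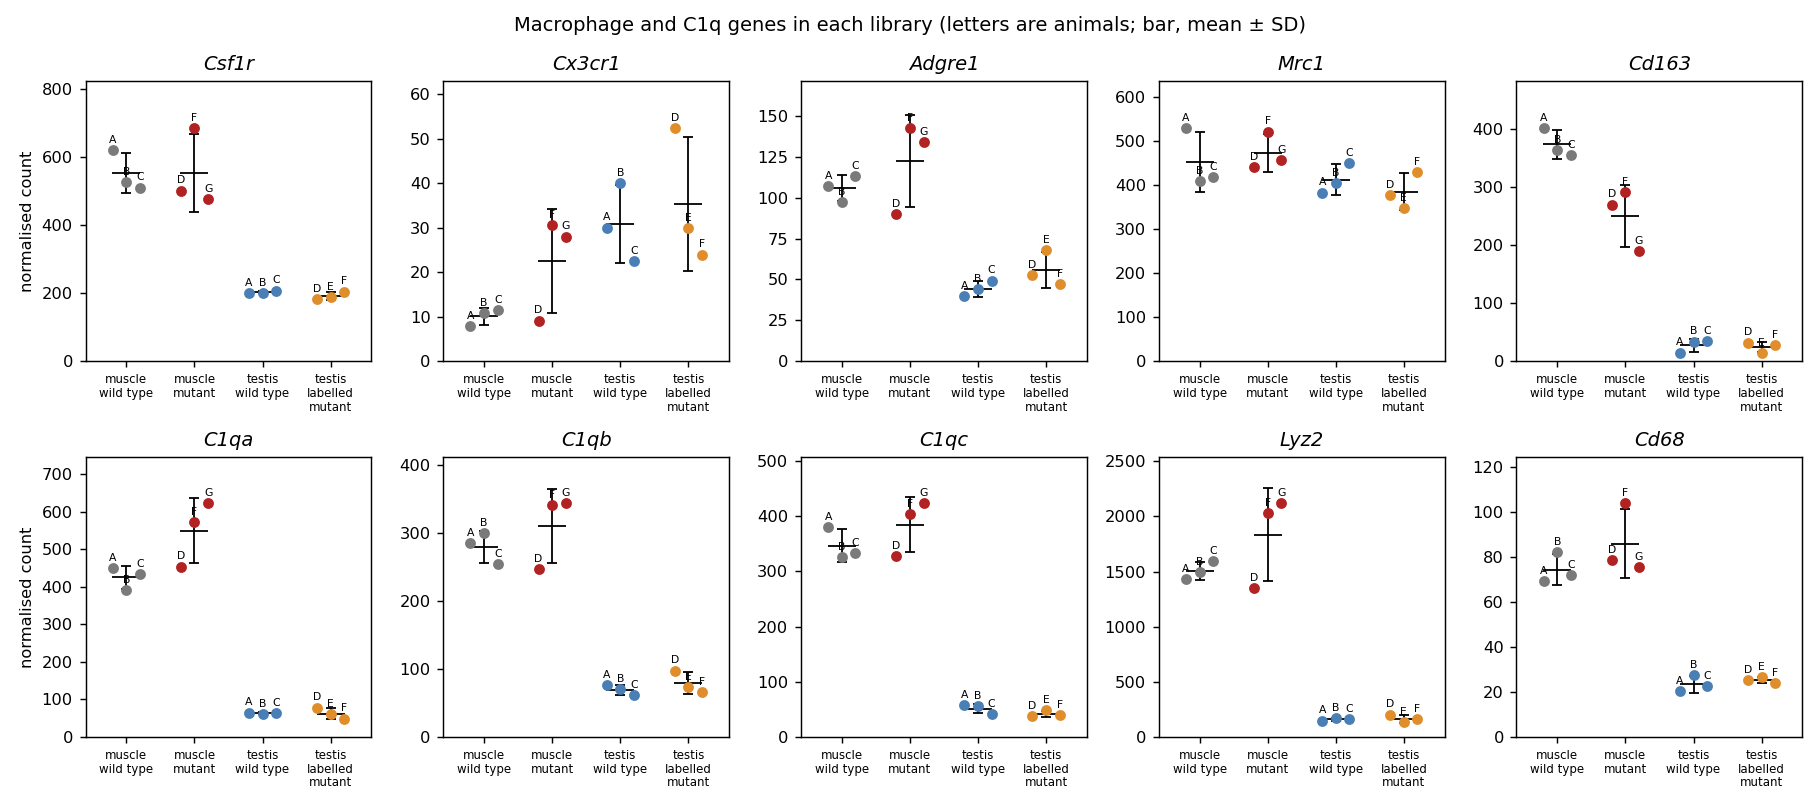
Normalised counts (vertical axis, from 0) of the 10 genes in each library, by tissue and genotype group; points are libraries with the animal's letter, and bars are mean ± SD (n = 3). For 8 genes all testis points lie below all muscle points, while Mrc1 stays within 347 to 530.4 in both tissues and Cx3cr1 reaches its highest value, 52.4, in testis.

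Csf1r (chr18:61100598-61132149) encodes the receptor for CSF1 and IL-34, the survival signal of macrophages. Muscle libraries read 622, 527, 511 (wild type) and 502, 687, 477 (mutant). Testis libraries read 201, 202, 208 (wild type) and 184, 189.7, 205 (labelled mutant). The testis libraries were close to each other and all below the muscle libraries, and the genotype groups overlapped in both tissues. The log2 difference between testis and muscle was -1.43 (SE 0.10, adjusted p = 2.48e-06, limma) in wild type and -1.50 (SE 0.16, adjusted p = 4.09e-05) in the mutant groups. Csf1r shares 873 bp of exon with Hmgxb3 on the other strand, and how strand was counted is not given in the sources used here, so reads of the pair may not be separable. Both of its ligand genes were lower in testis too. Csf1, which encodes the main ligand, went from 343 to 70.5 on the mean in wild type, a 4.87-fold fall (log2 -2.27, adjusted p = 9.14e-07), and Il34, which encodes the other ligand, was 9.35-fold lower (log2 -3.24, adjusted p = 8.71e-05).

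Cx3cr1 (chr9:119901616-120069879) encodes the receptor of the chemokine fractalkine, which is made by Cx3cl1. It was the lowest of the 10 genes in muscle, where libraries read 7.97, 10.8, 11.6 (wild type) and 9.12, 30.6, 28.0 (mutant). These rest on 27 to 30 reads in F and G and on 7 to 10 reads in each of the remaining 4. Testis libraries read 30.0, 40.0, 22.5 (wild type) and 52.4, 29.8, 24.0 (labelled mutant). It was the only member whose wild-type testis libraries all lay above its wild-type muscle libraries, while in the mutant groups F and G of muscle overlapped with testis. Wild-type muscle A (7.97) and mutant muscle D (9.12) were under the filter value of 10. Cx3cr1 thus passed the filter in both tissue comparisons only with testis libraries counted. Under the filter of a mean of at least 50 it was not tested. The difference was 3.05-fold in wild type (log2 1.50, SE 0.32, adjusted p = 0.00214, limma), with an adjusted p of 5.87e-04 to 0.102 over the alternatives. Without the high-islet libraries, which leaves C as the 1 wild-type testis library, it was 1.10 and not called (adjusted p = 0.102). In the mutant groups it was 0.72 (SE 0.52, adjusted p = 0.224), with an adjusted p of 0.00549 to 0.642 over the alternatives. The lowest of these was without muscle F and G, when D, with 8 reads, was the 1 mutant muscle library (log2 1.77). In both of these fits the spread came from the other group, and the lone library is assumed to vary like it. Relative to the median of all genes, which shifts with the filter and the libraries used, the log2 difference was 1.02 in wild type and 0.23 in the mutant groups. The annotated span of Cx3cr1 overlaps 9 other genes, with 78 bp of shared exon with the antisense gene Gm33858. Cx3cl1 was 46.2 to 47.8 in wild-type muscle and 25.9 to 43.2 in wild-type testis and was not called.

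Adgre1 (chr17:57358691-57483527) encodes F4/80, a surface protein widely used to mark mouse macrophages. Muscle libraries read 107, 97.4, 113 (wild type) and 90.1, 143, 134 (mutant). Testis libraries read 39.7, 44.1, 49.3 (wild type) and 52.4, 67.9, 47.1 (labelled mutant). All testis values were below all muscle values, with a log2 difference of -1.24 (SE 0.20, adjusted p = 3.68e-04, limma) in wild type and -1.10 (SE 0.26, adjusted p = 0.00463) in the mutant groups. Within the tissues the genotype groups overlapped. Cd68 (chr11:69664213-69666153), which encodes a glycoprotein of macrophage lysosomes, read 69.4, 82.2, 71.9 (wild type) and 78.7, 104, 75.6 (mutant) in muscle. Testis libraries read 20.3, 27.5, 22.5 (wild type) and 25.2, 26.5, 24.0 (labelled mutant). All testis values were below all muscle values. Its tissue difference was -1.63 (SE 0.24, adjusted p = 2.36e-04) in wild type and -1.72 (SE 0.25, adjusted p = 3.05e-04) in the mutant groups, and the genotype groups overlapped in both tissues.

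Mrc1 (chr2:14229392-14332057) encodes the mannose receptor CD206, which takes up glycoproteins and marks resident and repair-type macrophages, and it is also made by some endothelial cells. Muscle libraries read 530.4, 409, 419 (wild type) and 441, 522, 457 (mutant). Testis libraries read 383, 406, 450.1 (wild type) and 378, 347, 429.8 (labelled mutant). The tissues overlapped in wild type, whereas in the mutant groups all testis values lay below all muscle values. The log2 difference was -0.13 (SE 0.12, adjusted p = 0.360, limma) in wild type and -0.30 (SE 0.13, adjusted p = 0.0539) in the mutant groups. Mrc1 was called lower in wild type with TMM scaling (-0.32, adjusted p = 0.0464) and with edgeR (-0.33, adjusted p = 0.0291), while adjusted p ranged over the alternatives from 0.0291 to 0.993. In the mutant groups it was called lower with TMM (-0.47, adjusted p = 0.0104), edgeR (-0.47, adjusted p = 0.00907), DESeq2 (-0.35, adjusted p = 0.0480), all 12 libraries in one limma model (adjusted p = 0.0442), without muscle D (adjusted p = 0.0436) and without testis F (adjusted p = 0.0479), over a range of 0.00907 to 0.224. Relative to the median of all genes, the log2 difference of Mrc1 in wild type was -0.60 under both scalings. A change of scaling moves the gene and the median together, so this likeness was fixed in advance. The median also shifted with the libraries used. Without wild-type testis A it was -0.18, with Mrc1 at -0.073, and without wild-type muscle A it was 0.65, with Mrc1 at -0.0061. Endothelial markers, 6 genes, summed to 5975 to 7098 in muscle and to 585 to 819 in testis, and their part in the Mrc1 level was not tested.

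Cd163 (chr6:124304656-124330527) encodes the receptor that clears complexes of haptoglobin and haemoglobin. Muscle libraries read 403, 365, 356 (wild type) and 270.3, 291, 189.6 (mutant). Testis libraries read 15.0, 34.1, 35.1 (wild type) and 32.3, 14.9, 27.5 (labelled mutant). It had the widest tissue gap of the members in wild type, while in the mutant groups Lyz2 had a wider one (log2 -3.45 against -3.32), and in muscle it was the only member with all mutant libraries below all wild-type libraries. The tissue difference was -3.78 (SE 0.32, adjusted p = 5.99e-06, limma) in wild type and -3.32 (SE 0.33, adjusted p = 2.84e-05) in the mutant groups. Muscle fibre markers summed in wild-type testis B to 0.00768% of their muscle mean, and in the other testis libraries to 0.288% to 0.688%. Cd163 in testis B was 34.1, and over the 6 testis libraries it was 4.77% to 11.2% of its mean over all muscle libraries. The source of the muscle fibre transcripts in testis and any part of it in the Cd163 level were not tested. The other genes of haem handling were lower in testis as well, with 8 of 8 tested called lower in each genotype. This stands against 37.3% of all genes called lower in wild type and 36.3% in the mutant groups. Among them the haptoglobin gene Hp was 24.9-fold lower and the ferritin heavy chain gene Fth1 17.4-fold lower in wild type.

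The C1q chains were 3.92-fold to 9.07-fold lower in testis than in muscle over both genotypes. C1qa read 449.6, 391.7, 434 (wild type) and 454, 571, 622 (mutant) in muscle, and 65.3, 60.8, 63.5 (wild type) and 78.6, 60.5, 48.8 (labelled mutant) in testis. C1qb read 286, 301, 254 (wild type) and 247, 341, 344 (mutant) in muscle, and 76.8, 70.8, 61.8 (wild type) and 97.8, 73.7, 66.6 (labelled mutant) in testis. C1qc read 380.2, 326, 333 (wild type) and 327, 403, 423 (mutant) in muscle, and 57.4, 55.8, 41.8 (wild type) and 38.3, 48.9, 40.0 (labelled mutant) in testis. For each chain all testis libraries lay below all muscle libraries, and mutant muscle F and G were the highest libraries. In wild type the tissue difference was -2.73 (SE 0.12, adjusted p = 1.55e-07, limma) for C1qa, -1.99 (SE 0.15, adjusted p = 3.08e-06) for C1qb and -2.73 (SE 0.17, adjusted p = 1.02e-06) for C1qc. In the mutant groups it was -3.13 (SE 0.22), -1.96 (SE 0.21) and -3.15 (SE 0.19), each called. The chains did not keep the same proportion in both tissues: the ratio of C1qa to C1qb was 1.30 to 1.83 in the 6 muscle libraries and 0.733 to 1.03 in the 6 testis libraries, with no overlap. The ratio of C1qa to C1qc was 1.18 to 1.47 in muscle and 1.09 to 2.05 in testis, where it overlapped.

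Lyz2 (chr10:117277331-117282321) encodes lysozyme M, an enzyme of macrophages and neutrophils that digests bacterial walls. It had the largest counts of the 10 genes in muscle, at 1429, 1496, 1592 (wild type) and 1348, 2032, 2118 (mutant). Testis libraries read 149, 172, 165 (wild type) and 204, 133, 163 (labelled mutant). All testis values were far below all muscle values, with a log2 difference of -3.21 (SE 0.09, adjusted p = 1.16e-08, limma) in wild type and -3.45 (SE 0.22, adjusted p = 1.93e-06) in the mutant groups. Its close copy Lyz1 was 47.9 to 104 in muscle and 0 to 3.31 in testis, and reads of the pair may have been split between them, so both values are uncertain to that extent.

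**Figure D2:**
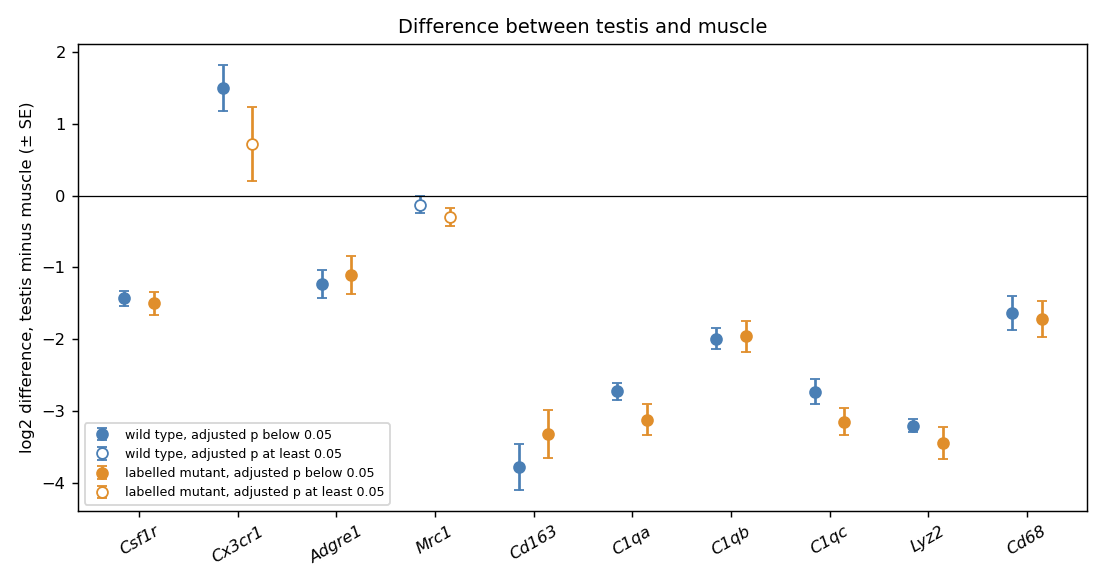
Log2 difference of normalised counts, testis minus muscle (vertical axis, ± SE from limma), for each of the 10 genes in wild type (blue) and in the groups labelled mutant (orange); filled points had an adjusted p below 0.05. Points for 8 genes lie between -1.10 and -3.78 in both genotypes, Mrc1 lies at -0.13 and -0.30, and Cx3cr1 lies above 0.

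Levels per kilobase of exon allow the genes to be ordered within a tissue. In wild-type muscle Lyz2 stood first at 1144 ± 62.4 normalised counts per kilobase, then C1qa at 409 ± 28.8, C1qb at 258 ± 21.9 and C1qc at 179 ± 15.4. These 4 did not overlap with each other. Csf1r (95.8 ± 10.3), Mrc1 (71.1 ± 10.6), Cd163 (68.6 ± 4.60) and Cd68 (59.3 ± 5.40) followed, of which Mrc1, Cd163 and Cd68 overlapped with each other. Adgre1 (32.7 ± 2.43) and Cx3cr1 (2.25 ± 0.42) were lowest and stood apart from their neighbours. In wild-type testis Lyz2 was again first (123 ± 8.99), and Mrc1 (64.8 ± 5.36), C1qb (64.1 ± 6.93) and C1qa (60.8 ± 2.18) formed a level that overlapped. Csf1r (35.3 ± 0.66), C1qc (26.7 ± 4.45), Cd68 (18.7 ± 2.93), Adgre1 (13.7 ± 1.48), Cx3cr1 (6.85 ± 1.94) and Cd163 (5.14 ± 2.08) came below them. Among these, C1qc overlapped with Cd68 and Cx3cr1 with Cd163. Cd163 thus went from order 7 in wild-type muscle to order 10 in wild-type testis, and Mrc1 from order 6 to order 2.

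Ratios to Csf1r within a library do not depend on the size factor. Mrc1 to Csf1r was 0.76 to 0.96 in muscle and 1.83 to 2.16 in testis. In muscle Cd163 to Csf1r was 0.648, 0.692, 0.696 (wild type) and 0.539, 0.424, 0.398 (mutant), and in testis 0.0746 to 0.176. Lyz2 to Csf1r was 2.30 to 4.44 in muscle and 0.699 to 1.11 in testis. The 2 tissues did not overlap in any of these 3 ratios, and for Cd163 to Csf1r the muscle genotype groups did not overlap either. These ratios are given as description, with no test.

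**Figure D3:**
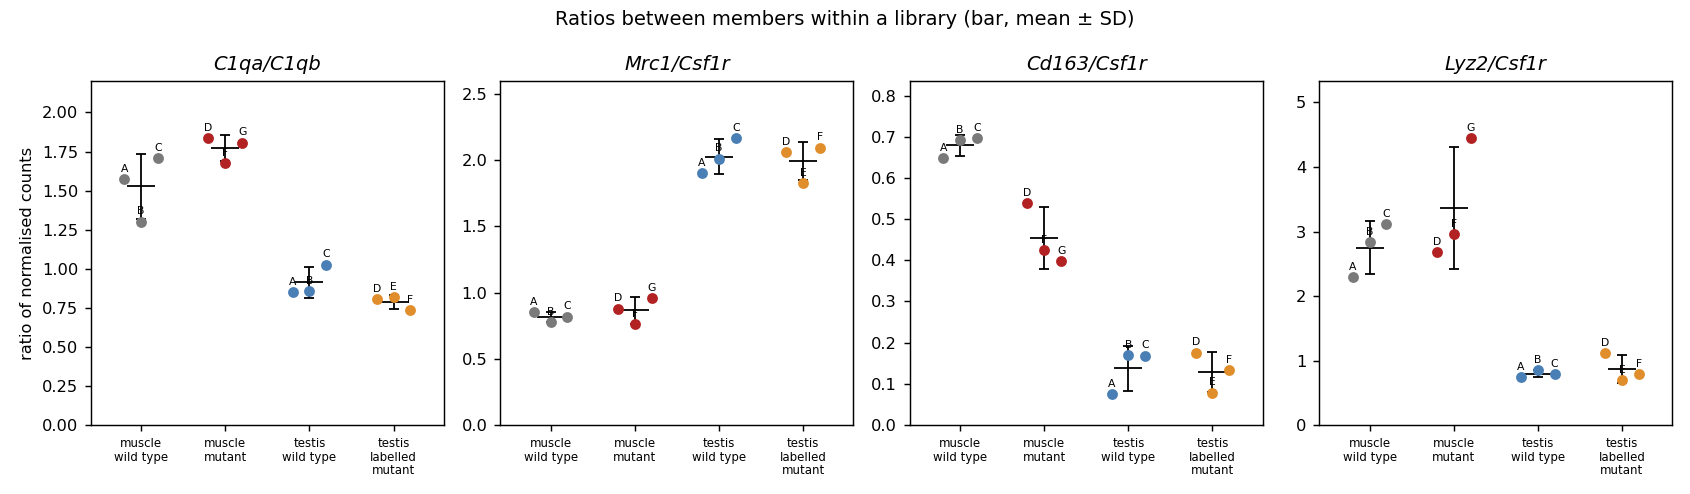
Ratios of normalised counts within each library (vertical axis, from 0) by tissue and genotype group; points are libraries with the animal's letter and bars are mean ± SD (n = 3). C1qa to C1qb, Cd163 to Csf1r and Lyz2 to Csf1r are higher in all 6 muscle libraries than in all 6 testis libraries, and Mrc1 to Csf1r is higher in all 6 testis libraries.

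The muscle comparison asked whether these genes differ in mutant muscle, and 0 of 10 were called by limma, against 0.0369% of 16246 genes. At an unadjusted p below 0.05 there were 2 members, Cd163 and C1qa, against 9.52% of all genes, and edgeR gave 3 and DESeq2 2 at that level with 0 called by either. Cd163 was 374 ± 25.1 in wild type and 250.4 ± 53.7 in mutant muscle, a log2 difference of -0.60 (SE 0.18, adjusted p = 0.519), with 3 of 3 mutant libraries below the wild types. C1qa was 425 ± 30.0 and 549 ± 86.1, a log2 difference of 0.36 (SE 0.15, adjusted p = 0.519), with 3 of 3 mutant libraries above the wild types. Groups that do not overlap occurred for 14% of all genes. The adjusted p ranged from 0.0926 to 1.00 over the alternatives for Cd163 and from 0.098 to 1.00 for C1qa. The remaining members had log2 differences of 0.93 (SE 0.52) for Cx3cr1, 0.26 (SE 0.17) for Lyz2, 0.19 (SE 0.22) for Cd68, 0.18 (SE 0.22) for Adgre1, 0.15 (SE 0.15) for C1qc, 0.14 (SE 0.17) for C1qb, 0.07 (SE 0.15) for Mrc1 and -0.01 (SE 0.17) for Csf1r. Thus 8 were above 0 and 2 below, with a median of 0.16 against -0.04 over all genes.

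The mutant muscle libraries did not move together. Relative to the wild-type mean, the median log2 deviation over the 10 genes was -0.13 in D, 0.37 in F and 0.29 in G, with 2, 9 and 8 genes above the wild-type mean. F and G were the 2 highest muscle libraries for 6 of the 10 genes, namely Adgre1, C1qa, C1qb, C1qc, Lyz2 and Cx3cr1. They are also the muscle libraries with more islet transcripts, and G has the most adipocyte and mitochondrial transcripts. Fibroblast markers, 6 genes, summed to 22136 in F and 25400.2 in G, against 17195 to 19225 in the remaining muscle libraries. Muscle fibre markers, 5 genes, were lowest in the same libraries, at 1481480 in F and 1008450 in G against 1646940 to 2041000. Without F and G, mutant D alone stood against the wild types, with 2 of 9 tested members above 0, 7 below and a median of -0.13. Cx3cr1 was then under the filter. Cd163 was -0.47 (adjusted p = 1.00) and C1qa 0.10 there. Without D, 4 members had an unadjusted p below 0.05 and 0 were called, while 497 genes were. Germ cell markers stood in muscle F and G at 0.646% and 0.738% of the testis mean and in the remaining muscle libraries at 1.24% to 1.73%. The source of these other transcripts and their part in the muscle values were not tested.

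**Figure D4:**
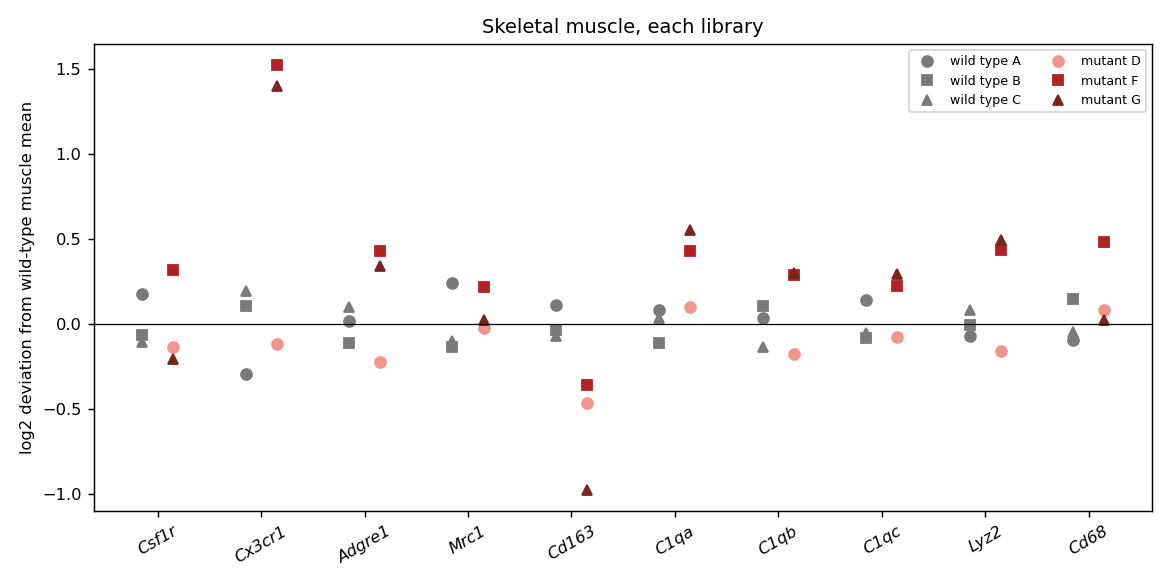
Log2 deviation of each muscle library from the wild-type muscle mean (vertical axis) for each of the 10 genes; grey symbols are wild-type A, B and C and red symbols are mutant D, F and G. Mutant F and G lie above the wild types for 6 genes, mutant D is below the wild-type mean for 8 genes, and Cd163 is below the wild types in all 3 mutant libraries.

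In testis 0 of 10 members were called between the labelled genotypes by limma, against 0.0205% of 19543 genes, and 0 had an unadjusted p below 0.05, against 7.09% of all genes. With edgeR and with DESeq2 0 were called as well. The groups overlapped for all 10, whereas they did not for 13.4% of all genes, with 5 log2 differences above 0 and 5 below and a median of -0.01 against 0.03 over all genes. The values ran from -0.27 (SE 0.21) for C1qc, 51.6 ± 8.60 against 42.4 ± 5.69, to 0.31 (SE 0.21) for Adgre1, 44.4 ± 4.78 against 55.8 ± 10.8. Testis D was the highest testis library for 4 members, C1qa, C1qb, Lyz2 and Cx3cr1, and it was the lowest for C1qc and Csf1r. The test of whether the genotype difference itself differed between the tissues called 0 of 10 members, against 0.00944% of 21195 genes, with 0 at an unadjusted p below 0.05, against 8.09%, and edgeR and DESeq2 also called 0. The interaction was -0.42 (SE 0.25, adjusted p = 0.667) for C1qc and -0.40 (SE 0.25, adjusted p = 0.679) for C1qa, and 0.46 (SE 0.48, adjusted p = 0.797) for Cd163.

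Other macrophage genes followed the tissue gap with exceptions. Of 29 tested, 23 were called lower and 3 higher in wild-type testis, and 22 lower and 2 higher in the mutant groups. Over all genes, 37.3% were called lower and 50.6% higher in wild type, and 36.3% and 49.7% in the mutant groups. Lower genes included Sirpa, an inhibitory receptor that binds CD47 (4.47-fold in wild type), Folr2, a folate receptor of resident macrophages (4.49-fold), and Maf, a transcription factor that muscle also expresses (94.0-fold). Aif1, which encodes an actin-binding protein of macrophages, was 66.0 to 87.3 in wild-type muscle and 3503 to 3931 in wild-type testis, 50.7-fold higher. The scavenger receptor gene Msr1 was also higher in both genotypes and Mpeg1 in wild type. Itgam, the integrin chain CD11b, was 39.8 to 62.8 in wild-type muscle and 0 to 4.16 in wild-type testis, so it passed the filter only through muscle. Tyrobp, a signalling adaptor, was 73.2 to 79.7 and 5.29 to 15.8. Both genes were chosen after their values were seen. Transcripts of macrophage markers were thus measured in both tissues, with several near 0 in testis. Which testis cells gave the Aif1 reads was not tested. MHC class II genes, which present antigen, were called lower in 7 of 7 in wild type and in 5 of 7 in the mutant groups, led by Cd74 (16.2-fold in wild type) and H2-Eb1 (10.6-fold).

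Complement genes other than C1q were called lower in testis for 13 of 22 and higher for 5 in wild type, and for 14 and 5 in the mutant groups. For these and the lysosome genes below, the shares over all genes were 37.3% lower and 50.6% higher in wild type. In the mutant groups they were 36.3% and 49.7%. C1s1, which encodes a protease that C1q carries, was 12.6-fold lower in wild type, the inhibitor gene Serping1 8.63-fold, and Vtn, which encodes the terminal-pathway inhibitor vitronectin, 29.7-fold. C3, the central component, was 23.9-fold lower in the mutant groups. Clu, which encodes the inhibitor clusterin, was 5.86-fold higher in wild type. Hc, which encodes C5, was called higher in the mutant groups, with 15.7 to 21.2 in testis and 0 reads in all 3 muscle libraries. Hc could pass the filter there only through testis, so the direction of its call was fixed in advance. Of 12 lysosome genes 10 were called lower in each genotype, with 2 higher in wild type and 1 in the mutant groups, and the protease genes Ctsd and Ctsb were 16.8-fold and 7.73-fold lower in wild type.

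Between genotypes 0 genes of these lists were called in either tissue, against 0.0369% of all genes in muscle and 0.0205% in testis. In muscle the other macrophage genes were 18 above 0 and 11 below of 29 (median 0.05), the other complement genes 14 and 5 of 19 (median 0.08), the lysosome genes 9 and 3 of 12 (median 0.16) and the MHC class II genes 7 and 0 of 7 (median 0.21), against a median of -0.04 over all genes. Mpeg1, which encodes the pore protein perforin-2, read 147, 160.1, 129.7 (wild type) and 161, 249, 322 (mutant, log2 0.69, SE 0.24, adjusted p = 0.519). Ctss, a protease of antigen presentation, read 139, 139.6, 155 (wild type) and 156, 240.4, 318 (mutant, log2 0.66, SE 0.24, adjusted p = 0.519). In both genes F and G were high and D was next to the wild types, as for the C1q chains. The sum of the MHC class II genes was 4143 in D, 6813 in F and 7228 in G, against 4541 to 5419 in wild-type muscle. Monocyte and neutrophil markers, 12 genes of which Ly6g was at 0 throughout wild-type muscle, summed to 199 to 249 in wild-type and 287 to 373 in mutant muscle. Mast cell markers, 5 genes, summed to 356 to 431 and 317 to 320.2, and 0 genes of either list were called. In testis the other macrophage genes were 14 above 0 and 10 below of 24 (median 0.08) and the MHC class II genes 1 and 5 of 6 (median -0.21), against 0.03 over all genes.

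Patterns were compared with the mean of the 3 C1q genes, over 12 libraries centred on their tissue means. The pool was 10021 genes with a mean normalised count of at least 50 in each tissue. With the members left out, the genes most alike were Cdc42ep4 (Pearson r 0.905), Tuba1b (0.885), Xbp1 (0.881), Nrp1 (0.875) and Acaa1a (0.874). Each had its highest muscle values in F and G, as with Xbp1 at 2052 and 1966 there and 1078 to 1200 in the remaining muscle libraries. Genes picked for a match to a mean that is highest in F and G are high there by selection. The points share animals between tissues, and F and G carry most of the spread. The mean is not 1 shared pattern in testis, where C1qc had r -0.05 with C1qa and -0.14 with C1qb over 6 libraries. There C1qa and C1qb had r 0.75, and in muscle the 3 pairs had r 0.71, 0.82 and 0.90.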

How the data were processed

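Per the labels' protocols, about 20 mg of tissue powder, collected at ZT6 to ZT7, gave RNA for each library, an RQN over 7.2 was required, and sequencing was paired with 150 bases a read. The build given in the submitters' processing notes is GRCm38.p4, and the tools listed there, with no role, are HTSeq 0.11.2, HISAT2 2.1.0, DESeq2 1.46.0, Picard 1.119 and fastp 0.23.4. The authors deposited signal values per gene, in which each library's read counts had been divided by its size factor. Whole reads were recovered from them for 100% of the values within 0.001, and their totals give the depth. The authors also deposited regularised log2 (rlog) values, which were used as an alternative. For testis D, 26 values had been turned into dates and were treated as missing, with 0 members affected. The number of columns left unmapped was 0. Columns carry animal numbers, and the replicate numbers of the titles are not tied to them.

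Each comparison was fitted with limma 3.58.1 (lmFit, eBayes with trend, two-sided) in R 4.3.3 on log2(normalised count + 1), for genes at 10 or more in at least 3 of the libraries fitted. Fold changes printed as such are ratios of group means. Calls required a Benjamini-Hochberg adjusted p under 0.05 over all genes tested. A permutation test of 3 libraries against 3 cannot go below p = 0.1. The fits were tested on simulated data. Positions and exon lengths came from GENCODE release M21 (GRCm38) for 47310 of 47730 features. The members and the gene lists were chosen with earlier results of these data known. The named genes are all members and, from each list and comparison, up to 4 called genes with the smallest adjusted p or else the 2 with the smallest p. Of the 2 named per list without a call, the text gives those that bear on the members. One gene that the rule names is not reported here. Alternatives were pseudocounts of 0.5 and 8, no filter, a mean of at least 50, TMM scaling, rlog values, edgeR 4.0.16, DESeq2 1.42.0, all 12 libraries in one model, leaving out each library, and leaving out the 4 libraries with an islet sum over 1.25 times the median of their tissue.

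The column numbers give the pairing, since the same animal gave both tissues. Over 10021 genes, deviations from the group mean correlated between the tissues of an animal at -0.07 for A, 0.01 for B, -0.01 for C, -0.04 for D and -0.06 for F.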

Additional observations from a re-analysis of the deposited data

Results flagged for a closer look

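The genotype difference of Bckdk itself differed between the tissues, with an interaction of 8.14 on the log2 scale (SE 0.21, adjusted p = 2.42e-10, limma), lower in mutant muscle and higher in the testis libraries labelled mutant. Ctsz, a lysosomal protease gene of the lysosome list, had all 3 mutant muscle libraries above wild type (796 to 1040.2 against 683 to 719) and all 3 testis libraries labelled mutant below wild type (60.4 to 76.6 against 81.6 to 112). Its interaction was -0.72 (SE 0.22, adjusted p = 0.555, limma), which did not pass. Ctsz was picked from the gene lists for this pattern, after the values were seen. Genotype groups that do not overlap, in either direction, occurred for 14% of all genes in muscle and 13.4% in testis. Some genes with opposite sides in the tissues can therefore arise by chance, and whether Ctsz is more than that was not tested. A gap test for outliers could not be run, since it needs groups of at least 4 libraries and these hold 3.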

How the results depend on the processing

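Of 870 values of single members under alternatives, 816 kept direction and side of the threshold, 9 gained a call, 1 lost it and 44 changed sign, and the count of members called stayed within 1.5 times its value in each comparison. The cause of these changes was not tested. Genes called in muscle were 14 with no filter, 36 with DESeq2 and 43 with all 12 libraries in one model, and 3 to 497 when each library was left out (10 without wild-type B, 3 without mutant F, 497 without mutant D). In testis the count was 4, and it was 1 with a pseudocount of 0.5, with a mean of at least 50 and without the high-islet libraries, 2 with TMM or rlog, 10 with DESeq2 and 1 to 6 when each library was left out (1 without A, B or D). For the interaction it was 1 with a pseudocount of 0.5, no filter, a mean of at least 50, edgeR or without the high-islet libraries, 57 with DESeq2, and 1 to 937 when each library was left out, with 937 without mutant muscle D.

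Sign changes concerned values that were not called. Without the high-islet libraries, which leaves 1 library in the mutant muscle and wild-type testis groups (the spread then comes from the other groups), the muscle genotype difference was -0.23 for Adgre1, -0.0263 for Mrc1, -0.0771 for C1qc, -0.18 for C1qb and -0.16 for Lyz2. In testis it was 0.0131 for C1qc and -0.0069 for Lyz2, and the tissue difference of Mrc1 in wild type was 0.0021. The interaction was then -0.0789 for Cd163, 0.0733 for Cd68, 0.0247 for Csf1r, 0.0902 for C1qc, 0.67 for Cx3cr1 and 0.15 for Lyz2. With TMM, edgeR and DESeq2 the muscle difference of Csf1r was 0.0335, 0.0490 and 0.0561, and the testis difference of Lyz2 was -0.0204, -0.0092 and -0.0052. The interaction of C1qb was -0.0371 with TMM and -0.0424 with edgeR. With each library left out in turn, the muscle difference ranged from -0.17 to 0.0909 for Csf1r and from -0.0013 to 0.19 for Mrc1. In testis it ranged from -0.53 to 0.18 for Cd163, -0.21 to 0.13 for C1qa, -0.16 to 0.39 for Cx3cr1 and -0.14 to 0.17 for Lyz2. The interaction ranged from -0.0709 to 0.26 for Adgre1, -0.18 to 0.0583 for Cd68, -0.17 to 0.0925 for Csf1r and -0.13 to 0.15 for C1qb.

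With the animal as a replicate block, 9 members and 17403 genes were called between the tissues in wild type, 8 members and 11681 genes in the mutant groups, and 0 members and 1 gene for the interaction, where Lyz2 turned to 0.0310. The block changed no other call of a member. Only D and F are paired in the mutant groups. No paired analysis was possible within a tissue because the genotype groups hold different animals and the columns carry no replicate numbers of the titles. Depth limits Cx3cr1 most, with 7 to 10 reads in 4 muscle libraries.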

Other observations

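Among markers of other immune cells in muscle, Ighm, the heavy chain gene of immunoglobulin M and one of the lymphocyte markers, read 2576, 2353, 2167 (wild type) and 1415, 1045, 981 (mutant). The groups did not overlap, D was below all wild types as well, and the log2 difference was -1.06 (SE 0.16, adjusted p = 0.0779, limma), which did not pass. In testis it was 24.7 to 43.3 and 23.2 to 32.9, with a log2 difference of -0.16 (SE 0.28, adjusted p = 0.923). The other T and B cell markers stayed at 54.1 or below in muscle, so the list's sum there is almost that of Ighm. Ighm was chosen after its values were seen.

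Lcn2, listed here with neutrophil markers, was 19.5 to 35.9 in wild-type muscle and 975 to 1039 in wild-type testis, 37.3-fold higher (log2 5.21, SE 0.21, adjusted p = 8.27e-08, limma), while the granule genes S100a8 and S100a9 were at 0 to 1.67 in wild-type testis. Of 12 markers of monocytes and neutrophils, 5 were tested in wild type. Among these, 4 were called higher in testis, and Ccr2, a chemokine receptor of monocytes, was called lower, 17.3-fold. Over all genes, 50.6% were called higher and 37.3% lower.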
